A study of Mus musculus with 8 samples.

Results

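The transcripts of the respiratory chain were followed cell by cell in the subventricular zone (SVZ) of the mouse brain, the neurogenic niche along the lateral ventricle. Members were taken by name: nuclear genes whose symbols begin with Ndufa, Ndufb, Ndufc, Ndufs, Ndufv, Cox4 to Cox8, Atp5 or Uqcr, pseudogenes left out, and every gene of the mitochondrial genome (mt-). Of 119 genes with such names, 105 had at least 50 unique molecular identifiers (UMIs, 1 per captured transcript molecule) over all libraries, among 27849 genes in the files. These were 83 nuclear genes, namely 36 of complex I, 8 of complex III, 14 of complex IV, 15 of complex V (the ATP synthase) and 10 assembly or accessory factors, and 22 mitochondrial genes, namely 7 mRNAs, 2 rRNAs and 13 tRNAs. The levels of members just inside the minimum were 55 UMIs for mt-Tw and 59 for mt-Tl1, and just outside it 45 for mt-Tf and 40 for Cox7a1.

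Cells were profiled by Drop-seq, in which a cell and a barcoded bead share a droplet, in 8 libraries with 1 library per group. The mice were C57BL/6 and carried the CGD transgene, in which regulatory sequence of Nestin drives CreERT2, H2B-eGFP and the diphtheria toxin receptor, set apart by P2A, so that a gate on GFP selects by the activity of that sequence and by GFP kept after it. The sort set came from SVZ tissue at an age of 2 months, with a gate for high, low or no GFP and an unsorted library of viable cells. The age set had no GFP gate, and its viable cells came from mice of 2 weeks or of 2, 6 or 12 months. The unsorted library of the sort set and the 2 months library of the age set therefore carry the same age and gate. The number of animals behind a library is not given in the sources used here, and with 1 library per group no test between groups was possible. Intervals on levels and on ratios between libraries are exact 95% intervals that cover counting error only.

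The respiratory chain of the inner mitochondrial membrane passes electrons from complexes I and II through III to IV and builds the proton gradient that complex V uses to make ATP. Its complexes I, III, IV and V are built from subunits of both genomes: the mitochondrial genome encodes core subunits, the rRNAs and the tRNAs with which it translates them, and all other subunits come from nuclear genes. In the SVZ, astrocytes and quiescent neural stem cells (NSCs) are known for glycolysis and fatty acid oxidation, and oxidative phosphorylation is known to gain weight as stem cells are activated and differentiate.

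Nuclear genes of the chain are known to share promoter elements for the factors NRF1 and YY1, and the promoters of 3 members with an NRF1 element and 1 with a YY1 element are printed because they show the sequence that members of different complexes hold in common. The windows, from RefSeq on GRCm38.p6, are the 100 bases before the annotated start, 5′ to 3′ on the gene's strand, with the element in capitals.
Atp5k (complex V), chr5:108434400-108434499, minus strand: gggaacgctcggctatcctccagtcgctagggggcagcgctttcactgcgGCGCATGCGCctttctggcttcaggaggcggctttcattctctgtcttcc
Atp5g2 (complex V), chr15:102671048-102671147, minus strand: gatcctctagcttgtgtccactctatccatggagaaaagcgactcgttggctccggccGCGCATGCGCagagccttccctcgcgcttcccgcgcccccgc
Ndufa11 (complex I), chr17:56717662-56717761, plus strand: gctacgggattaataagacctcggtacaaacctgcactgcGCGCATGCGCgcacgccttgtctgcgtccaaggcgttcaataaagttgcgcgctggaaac
Atp5j (complex V), chr16:84834977-84835076, minus strand: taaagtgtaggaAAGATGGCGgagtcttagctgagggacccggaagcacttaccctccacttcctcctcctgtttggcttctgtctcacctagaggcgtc

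Promoter windows of 300 bases, 250 before and 50 after the start, were matched for 70 of the 83 nuclear members (76 windows) and searched on both strands. The NRF1 element, spelled by the capitals of the first 3 windows, was present in 7 members, Atp5g2, Atp5k, Cox6a1, Ndufa11, Ndufaf4, Ndufaf5 and Uqcrc1, and in 9.21% of member windows, against 0.971% of 32851 windows of the annotation. The YY1 element AAGATGGCG was present in 8 members, among them Atp5j, Ndufc1, Ndufs4 and Ndufs7, and in 11.8% of member windows against 1.40%. It began at position -88 from the start in Atp5j, whose window is printed above. In the other members it began 23 to 36 bases after a start, and in Atp5sl also at -53 from another annotated start. No member held both the NRF1 and the YY1 element. The ETS element CCGGAAG, whose overlap with the others was not counted, was present in 19.7% of member windows against 8.86%, and TATAAA in 7.89% against 13.6%. The 100 bases before the start had a median GC content of 62% in member windows and 55% in all windows. The NRF1 and ETS elements are themselves rich in G and C, AAGATGGCG less so and TATAAA not at all. Cox6b2, Cox7a2l and Uqcrh, on which results for classes below turn, had neither the NRF1 nor the YY1 letters in their windows. For Cox6b2 and Cox7a2l the 100 bases before the start are shown for comparison.
Cox6b2 (complex IV), chr7:4753095-4753194, minus strand: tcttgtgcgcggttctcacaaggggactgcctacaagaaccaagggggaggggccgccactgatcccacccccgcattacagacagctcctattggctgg
Cox7a2l (assembly), chr17:83514334-83514433, minus strand: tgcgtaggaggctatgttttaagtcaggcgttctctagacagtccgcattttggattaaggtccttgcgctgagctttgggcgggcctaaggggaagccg

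Of 11017 barcodes, 9100 had at least 400 UMIs, with 521 to 1708 barcodes and 672062 to 2570618 UMIs per library and medians of 722.5 to 1242 UMIs per barcode. No barcode sequence recurred between libraries among those kept. After 129 called doublets were removed, the other 8971 cells were clustered without the member genes and 17 clusters were named from marker lists. Most clusters took the name of a class expected in this tissue, and names end in "-like" because they rest on markers alone: astrocyte/NSC-like (2404 cells), dividing progenitor-like (1451), neuroblast-like (1494), oligodendrocyte-like (1888), microglia-like (779), mature neuron-like (273), oligodendrocyte precursor-like (251), endothelial-like (143) and ependymal-like (76) cells. Small clusters of erythrocyte-like (62) and other leukocyte-like cells (36) were set aside. Cluster 11 (114 cells) stayed unnamed, since its pericyte and fibroblast markers tied. One of the 2 dividing progenitor-like clusters rested on 4 markers, a share of 0.333 of its list.

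Among the nuclear members, the most counted of complex I were Ndufc2 (6009 UMIs), Ndufa13 (5579) and Ndufc1 (4537), accessory subunits of the NADH dehydrogenase. In complex III they were Uqcrq (5181 UMIs), Uqcrh (4813) and Uqcr11 (4570), and in complex V Atp5b (7032 UMIs), the catalytic beta subunit, Atp5j (6018) and Atp5j2 (5721). In complex IV, the cytochrome c oxidase, they were Cox4i1 (11998 UMIs), Cox6a1 (9287) and Cox6c (8701). Drop-seq counts the ends of polyadenylated RNA, so these counts say how well each gene was measured and not how the genes compare in abundance.

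The mitochondrial mRNAs were measured unevenly. The 7 members were mt-Cytb (49758 UMIs), the subunit of complex III, mt-Co1 (23995), the catalytic subunit of complex IV, and the complex I subunits mt-Nd1 (26120), mt-Nd2 (19318), mt-Nd4 (18862), mt-Nd5 (17019) and mt-Nd6 (1250). The rRNAs were mt-Rnr2 (86760 UMIs) and mt-Rnr1 (7761). Of the 13 mitochondrial mRNA genes, 5 had 1 to 8 UMIs, namely mt-Atp6, mt-Co2, mt-Co3, mt-Nd3 and mt-Nd4l. In these 5 genes, over 90% of the 64-base windows (the read length) recurred exactly in another annotated transcript of the nuclear genome, from 97.9% in mt-Nd3 to 99.9% in mt-Co3. One of those nuclear copies, Gm28438, had 1670 UMIs of its own. Of the other 8 mitochondrial mRNAs, mt-Atp8 had no such window and 2 UMIs, and the highest was mt-Cytb, with no such window. Statements on mitochondrial mRNA below rest on the 7 members and hold for no other mitochondrial mRNA.

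The nuclear sum, the UMIs of all 83 nuclear members per 1000000 UMIs of a library (CPM), ranged from 16979 (95% interval 16713 to 17248) in GFP negative to 28314 (28043 to 28586) at 2 weeks. GFP high had 23707, GFP low 24833 and the unsorted library 21724, and the libraries of 2, 6 and 12 months had 27302, 22370 and 22694. The 2 young libraries of the age set were thus the highest and GFP negative the lowest.

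The mitochondrial sum of the 22 mt- members followed another order. It was lowest in GFP low at 14889 CPM (14741 to 15039) and highest at 12 months at 28389 (27987 to 28795). Between them lay GFP negative (17629), 2 weeks (17719), 2 months (19055), GFP high (20660), the unsorted library (21491) and 6 months (23764). The mitochondrial sum divided by the nuclear sum, which is read here only between libraries, ran from 0.600 in GFP low to 1.25 at 12 months.

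**Figure D1:**
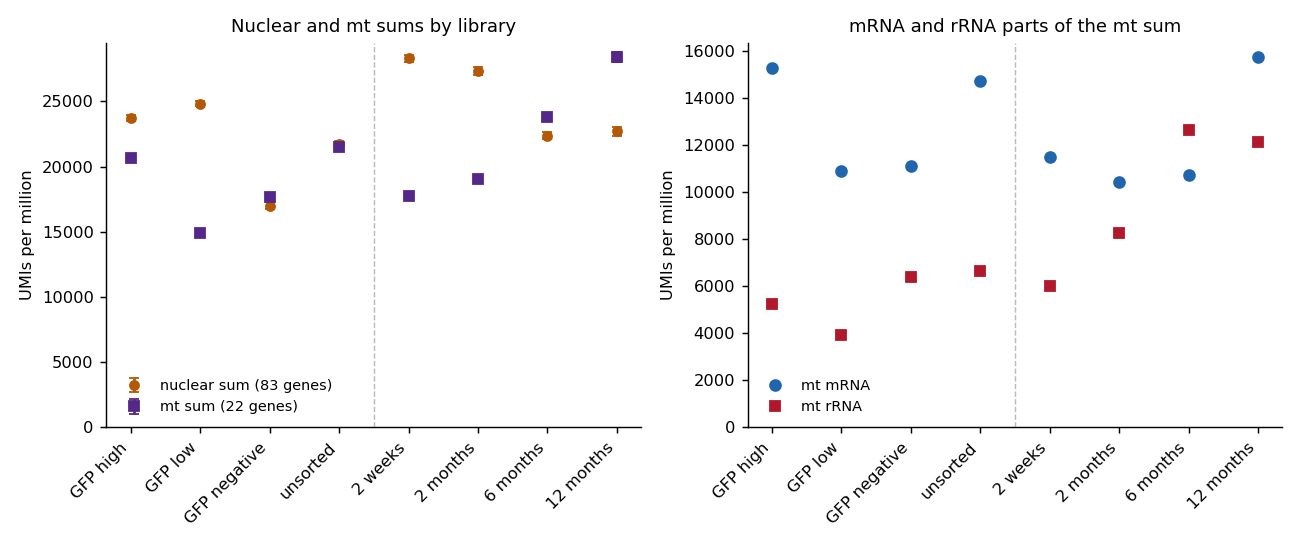
Left, sums of nuclear and mitochondrial members in CPM in each library, with exact 95% Poisson intervals, and right, the mRNA and rRNA parts of the mitochondrial sum. The dashed line parts the sort set from the age set. Between libraries, the mitochondrial sum relative to the nuclear sum was highest at 12 months, and the rRNA part relative to the mRNA part was highest at 6 months.

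The 2 libraries with the same age and gate set a scale for such differences. Between the unsorted and the 2 months libraries, the nuclear sum was 0.796-fold (0.784 to 0.808) and the mitochondrial sum 1.13-fold (1.11 to 1.15). Within the mitochondrial sum, mRNA was 1.41-fold (1.38 to 1.44) and rRNA 0.804-fold (0.783 to 0.826), and tRNA 0.316-fold (0.265 to 0.375). The nuclear sum was also lower in the unsorted library within astrocyte/NSC-like (0.836-fold), neuroblast-like (0.833-fold), oligodendrocyte-like (0.753-fold) and microglia-like cells (0.792-fold). Of 81 nuclear members with at least 50 UMIs in both libraries together, 18 were at least 1.5-fold lower in the unsorted library and 4 at least 1.5-fold higher, against 13.6% and 19.2% of all genes. Complex I held 10 of the 18. The median log2 ratio was -0.25 over the nuclear members and 0.00 over all genes.

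GFP high and GFP low cells, which the GFP gate separated, were closer in their nuclear than in their mitochondrial sums. The nuclear sum of GFP high was 0.955-fold that of GFP low (0.942 to 0.967) and the mitochondrial sum 1.39-fold (1.37 to 1.41). The nuclear difference turned round to 1.07-fold with median-of-ratios size factors. Of 81 nuclear members, 2 were at least 1.5-fold higher and 1 at least 1.5-fold lower, against 19.2% and 26.9% of all genes. All 7 mitochondrial mRNAs were higher in GFP high, 3 of them at least 1.5-fold, and mt-Nd5 was at 1983 against 1046 CPM, 1.90-fold (1.80 to 2.00). Cox6b2, an isoform of a complex IV subunit known from testis, was the nuclear member with the largest ratio: 109 CPM for the high gate against 26.1 for the low one, 4.18-fold (3.13 to 5.63). Cox7a2, the liver-type subunit of complex IV, had the lowest ratio, at 465 against 711 CPM, 0.654-fold (0.600 to 0.714).

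The make-up of the 2 gates differed, since GFP high held 1087 astrocyte/NSC-like and 138 dividing progenitor-like cells and GFP low 411 and 584. Within a class the difference in mitochondrial mRNA remained. In astrocyte/NSC-like cells, mitochondrial mRNA was at 15328 CPM for the high gate against 11814 for the low one, 1.30-fold (1.25 to 1.34), and the nuclear sum was 1.05-fold (1.02 to 1.07). In dividing progenitor-like cells, mitochondrial mRNA was at 13359 against 10589 CPM, 1.26-fold (1.22 to 1.30), while mitochondrial rRNA was 0.990-fold (0.922 to 1.06) and the nuclear sum 0.977-fold (0.955 to 0.999). The unsorted and 2 months libraries, with the same age and gate, differed by more in mitochondrial mRNA. They were at 14663 against 10779 CPM in astrocyte/NSC-like and 13460 against 9579 in dividing progenitor-like cells. Gate and library cannot be told apart here.

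Against GFP negative, which held mostly oligodendrocyte-like cells (617) and microglia-like cells (168), GFP high had a nuclear sum 1.40-fold higher (1.37 to 1.42). The difference ran through the complexes, at 1.44-fold for complex I, 1.41-fold for III, 1.30-fold for IV and 1.48-fold for V, and was 1.11-fold (0.989 to 1.25) for the assembly and accessory factors. Of 75 nuclear members, 33 were at least 1.5-fold higher and 1 at least 1.5-fold lower, where 34.4% and 23.4% of all genes were, so the share of higher members was not far from that of all genes. Ndufc2 was at 713 CPM against 280, 2.54-fold (2.22 to 2.93), and Ndufb4, another complex I subunit, at 111 against 29.4, 3.78-fold (2.51 to 5.91). The only nuclear member past 1.5-fold in the other direction was Ndufaf2, a complex I assembly factor, at 87.0 against 141 CPM. Mitochondrial mRNA was 1.38-fold higher (1.34 to 1.41) and mitochondrial rRNA 0.821-fold (0.794 to 0.850). The RNAs kept in the nucleus, summed over their list, ranged from 12635 CPM in the unsorted library to 32987 in GFP negative, and the part of this difference in the lower nuclear sum of GFP negative was not tested.

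Across the age set, nuclear members stood lower and mitochondrial rRNA higher in the older libraries. The nuclear sum at 12 months was 0.802-fold (0.787 to 0.817) that at 2 weeks, a difference of the size seen between the 2 libraries with the same labels. By complex it was 0.829-fold for I, 0.719-fold for III, 0.809-fold for IV and 0.774-fold for V. The mix of classes differed, with 5 oligodendrocyte-like and 155 oligodendrocyte precursor-like cells at 2 weeks, and 162 and 3 at 12 months. Within classes the nuclear sum was at 28292 and 23837 CPM in astrocyte/NSC-like cells at 2 weeks and 12 months. It was at 30939 and 28092 in dividing progenitor-like, 27845.5 and 25065 in neuroblast-like, and 12152 and 10753 in microglia-like cells. Of 75 nuclear members, 9 were at least 1.5-fold lower at 12 months and 2 at least 1.5-fold higher, against 24.7% and 14.2% of all genes. By direction alone, 63 were lower and 12 higher, where 37.8% of all genes were higher. Their median log2 ratio was -0.32, and over all genes it was -0.19. Those with the lowest ratios were Uqcrb of complex III (439 CPM at 2 weeks and 251 at 12 months, 0.572-fold), Ndufa1 of complex I (303 and 174, 0.575-fold) and Atp5j2 of complex V (637 and 378, 0.593-fold). The 2 in the other direction were Atp5l, which has pseudogene copies, and Atp5g2, 1 of 3 genes for the c subunit of the ATP synthase, with 49.3, 43.3, 44.2 and 121 CPM in the 4 age libraries, youngest first. In the sort set Atp5g2 was between 2.18 and 24.5 CPM, so it was higher in each age library than in any sort library.

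In the 4 age libraries, youngest first, mitochondrial rRNA was at 5995, 8249, 12656 and 12143 CPM, 2.03-fold (1.97 to 2.09) at 12 months over 2 weeks. It rested on mt-Rnr2, the large rRNA, with 5472, 7432, 11704 and 11188 CPM in that order. Within classes the ratio of 12 months over 2 weeks was 2.22 in astrocyte/NSC-like cells, 1.87 in dividing progenitor-like cells, 1.69 in neuroblast-like cells and 1.54 in microglia-like cells. The 4 sort libraries, all at 2 months, ranged from 3915 to 6633 CPM, below the 2 months library of the age set, so that set and age are both tied to this level. With 1 library per age, age and library cannot be told apart.

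Mitochondrial mRNA did not follow the rRNA. In the same order it was at 11506, 10458, 10742 and 15775 CPM. At 6 months over 2 months, it was 1.03-fold (1.00 to 1.05) while rRNA was 1.53-fold (1.49 to 1.57). Within classes it was 0.831-fold in astrocyte/NSC-like cells and 1.18-fold in oligodendrocyte-like cells, and 0.960-fold to 0.968-fold in dividing progenitor-like, neuroblast-like and microglia-like cells. At 12 months over 2 weeks, mitochondrial mRNA was 1.2-fold in astrocyte/NSC-like cells, 1.31-fold in dividing progenitor-like cells and 1.27-fold in neuroblast-like cells, and in microglia-like cells 1.06-fold (0.958 to 1.16), an interval that holds 1. For scale, the unsorted and 2 months libraries, with the same age and gate, were at 14663 against 10779 CPM in astrocyte/NSC-like cells. In dividing progenitor-like cells they were at 13460 against 9579, in neuroblast-like cells at 13579 against 10519 and in microglia-like cells at 6509 against 6633.

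Of the mitochondrial mRNAs, mt-Co1, which encodes the catalytic subunit of complex IV, had a split of its own between the libraries. It was at 2704 CPM for the high gate, 2470 for the low gate, 2377 for GFP negative, 2469 for the unsorted library and 2161 at 12 months. The 3 younger age libraries had 881 (2 weeks), 795 (2 months) and 847 CPM (6 months). The first 5 libraries were thus within a narrow range and the other 3 far below it, while mt-Cytb stayed between 2521 and 4780 CPM. The same 3 libraries were low in each class given here. In astrocyte/NSC-like cells, mt-Co1 was at 652 to 828.8 CPM in those 3 libraries and at 1988 to 2496 in the other 5. In dividing progenitor-like cells it was at 753 to 932 against 2349 to 2839. In microglia-like cells it was at 309 to 364 against 769 to 939, and in neuroblast-like cells at 747 to 1037 against 2227 to 2410. The 2 libraries labelled with the same age and gate fell on different sides, at 3.11-fold (2.89 to 3.34) for unsorted over 2 months. All of the last 300 windows of mt-Co1 recurred in a nuclear copy, Gm29216, which had 40 UMIs, and the part of this copy in the difference was not tested.

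The mitochondrial tRNAs, short RNAs that are not mRNA, split the libraries by set. Their sum was 57.2 to 110 CPM in the 4 sort libraries and 218, 348, 366 and 470 in the age libraries, youngest first. For 10 of the 13 tRNAs each age library was above each sort library, which held for 3.71% of all genes of 50 or more UMIs, and for 8 of 83 nuclear members. mt-Tv was at 5.45 to 8.37 CPM in the sort set and at 16.9, 66.3, 48.3 and 52.1 in the age set. In the other direction, each sort library was above each age library for mt-Co1 and 2 nuclear members, and for 6.87% of all genes. Within neuroblast-like cells, the tRNA sum was 97.2 to 174 CPM in the sort set and 373 to 651 in the age set. Set and library preparation cannot be told apart here.

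Cells of one library share its preparation, so classes were compared within libraries, against astrocyte/NSC-like cells. This reference class is mostly cluster 0 (1555 cells), which was led by astrocyte genes such as Agt, Aqp4 and Gjb6, and the stem cells in it were not set apart. The log2 difference was taken in each library with at least 20 cells of both classes and tested over libraries by an exact two-sided sign-flip permutation test, with p adjusted by Benjamini-Hochberg over 8 results (4 classes, both sums). Dividing progenitor-like cells had a higher nuclear sum and a lower mitochondrial sum in CPM. Their nuclear sum was higher in 8 of 8 libraries, by 0.20 ± 0.05 log2 (SD, n = 8 libraries, exact permutation p = 0.0078, the smallest it can give, adjusted p = 0.0312), or 1.15-fold. It lay between 22649 and 31991 CPM and that of astrocyte/NSC-like cells between 19192 and 28292. Their mitochondrial sum was lower in 8 of 8 libraries, with a mean log2 difference of -0.53 ± 0.13 (SD, n = 8, exact permutation adjusted p = 0.0312), or 1.45-fold. It lay between 13169 and 20704 CPM, against 17567 to 30358. Dividing progenitor-like cells had median depths of 1180 to 2223 UMIs per library and astrocyte/NSC-like cells 610 to 1246. In cells of 800 to 2000 UMIs only, the mitochondrial difference was -0.22 log2 (exact permutation adjusted p = 0.25) and the nuclear one 0.14 (adjusted p = 0.125), in fewer libraries. RNAs kept in the nucleus summed to 4161 to 12628 CPM in dividing progenitor-like, 8316 to 22592 in neuroblast-like, 15308 to 33574 in oligodendrocyte-like, 11559 to 32612 in microglia-like and 22305 to 72696 in astrocyte/NSC-like cells, and their part in the class differences was not tested.

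The difference was mostly in rRNA. Mitochondrial rRNA of dividing progenitor-like cells was 0.461-fold that of astrocyte/NSC-like cells (geometric mean, 0.408 to 0.589 over libraries, lower in 8 of 8), and mitochondrial mRNA 0.864-fold (0.704 to 1.04, lower in 7 of 8). The difference in the nuclear sum was in complexes IV (1.24-fold, higher in 8 of 8 libraries) and V (1.23-fold, 8 of 8) more than in I (1.04-fold, 5 of 8) and III (1.09-fold, 7 of 8). In the gene by gene test below, the median log2 fold relative to all genes was -0.22 for I, -0.34 for III, 0.056 for IV and -0.0047 for V. Over all nuclear members it was -0.076, so the higher nuclear sum was not a rise above the median of all genes.

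**Figure D2:**
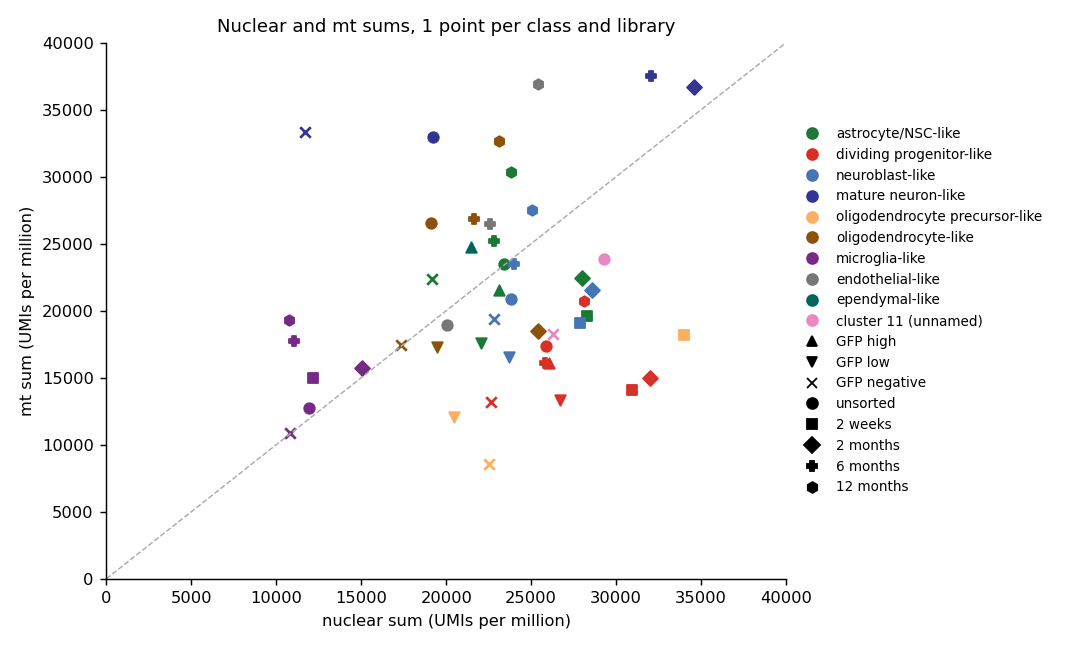
Nuclear sum (x axis) against mitochondrial sum (y axis) in CPM, 1 point for each class and library with at least 20 cells, colour for the class and shape for the library. The dashed line of equal sums is a guide for comparing points only, since the counts do not compare genes in abundance. Dividing progenitor-like cells lie below it in each of 8 libraries, and microglia-like cells on or above it, with nuclear sums of 10753 to 15018.

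**Figure D3:**
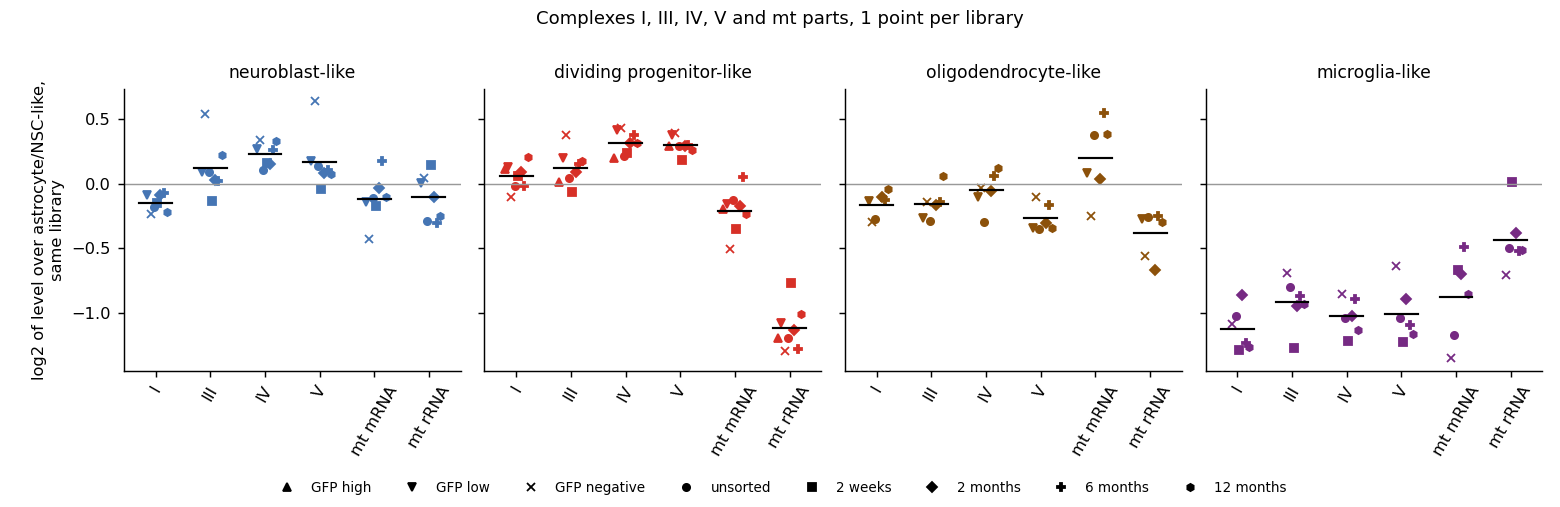
Log2 ratio of each class to astrocyte/NSC-like cells of the same library, for nuclear complexes I, III, IV and V and for mitochondrial mRNA and rRNA, with 1 point per library and a bar at the mean. Mitochondrial rRNA of dividing progenitor-like cells lies below 0 in all 8 libraries, and the nuclear complexes of microglia-like cells lie below 0 in all 6.

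Gene by gene, edgeR's quasi-likelihood test on UMIs summed per class and library, with the library as a block and Benjamini-Hochberg adjustment over all genes tested, called 15 nuclear members higher and 21 lower among 75 tested in dividing progenitor-like cells, where 36.3% and 31.1% of all genes were called (67.4% in either direction). With other scalings this split was 26 higher and 10 lower (library totals alone) or 23 and 14 (DESeq2). Leaving out the 12 months library gave 43 and 6, and leaving out GFP low gave 5 and 17. The median log2 of all genes was 0.10 under the first scaling and 0.27 with DESeq2, and that of the nuclear members 0.02 and 0.18. Under all 3 scalings 15 members were higher and 10 lower. By complex, 12 of 36 members of complex I were called lower and 4 higher (6 and 4 under all 3 scalings), and in complex IV 4 of 12 were higher and 3 lower. The difference between the complexes was not tested.

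Cox5a, a nuclear subunit of complex IV, was at 135 to 365 CPM over the 8 libraries of astrocyte/NSC-like and at 423 to 629 in those of dividing progenitor-like cells. The libraries of the 2 classes did not overlap for it, and its log2 fold was 0.71 ± 0.15 (SE, edgeR adjusted p = 3.28e-05, 0.61 relative to the median of all genes). Atp5e, the epsilon subunit of the ATP synthase, was at 72.7 to 457 CPM against 492 to 725, higher in dividing progenitor-like cells in 8 of 8 libraries, with a log2 fold of 0.57 ± 0.16 (SE, edgeR adjusted p = 0.00115). Its lowest value is that of GFP negative, whose 22 astrocyte/NSC-like cells held 13756 UMIs, and rests on few UMIs. The same holds for levels of 145 and 291 CPM given below for single genes in astrocyte/NSC-like cells. Cox7a2 was at 712 CPM (586 to 896) against 440 (352 to 521), also without overlap. Cox6b2 fell furthest of the nuclear members. It was at 87.2 CPM (35.1 to 190) in astrocyte/NSC-like and 13.6 (3.88 to 40.6) in dividing progenitor-like cells, 6.19-fold lower, log2 fold -2.63 ± 0.27 (SE, edgeR adjusted p = 2.07e-14), and lower in 8 of 8 libraries.

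Of 9 mitochondrial members tested, 6 fell in dividing progenitor-like cells and 0 rose in the edgeR test (0 also at an unadjusted p under 0.05, 1 with DESeq2), and the 6 fell under all 3 scalings: mt-Rnr1, mt-Rnr2, mt-Nd2, mt-Nd4, mt-Nd5 and mt-Nd6. Of all genes, 31.1% were called lower and 36.3% higher by edgeR. mt-Rnr2 was at 3524 CPM (2411 to 6740) against 8187 (5222 to 14963), 2.42-fold lower and lower in 8 of 8 libraries (edgeR adjusted p = 1.07e-09). mt-Nd2 was at 959 (776 to 1405) against 1997 (1272 to 2835), a fall of 1.04 on the log2 scale. mt-Co1 and mt-Cytb were not called. The 2 clusters of the class also differed: cluster 7 had a mitochondrial sum 1.03-fold to 1.52-fold that of cluster 5 in 7 of 7 libraries, and medians of 1382.5 and 2440 UMIs.

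Neuroblast-like cells, the young neurons that follow, had sums close to those of astrocyte/NSC-like cells. The nuclear sum was higher in 6 of 7 libraries, by 0.08 ± 0.09 log2 (SD, n = 7, exact permutation adjusted p = 0.0357), and the mitochondrial sum lower in 7 of 7, with a mean of -0.11 ± 0.06 (SD, n = 7, exact permutation adjusted p = 0.0357). Neither difference held in cells of at least 1000 UMIs, where the nuclear one was 0.0024 and the mitochondrial one turned to 0.10. Of the dissociation and stress list, 7 of 10 tested genes rose and 2 fell in neuroblast-like cells, against 47.4% and 25.8% of all genes. The list had a summed level of 3324 to 9441 CPM against 1475 to 9005 in astrocyte/NSC-like cells, and its part in these results was not tested. Within the nuclear sum the complexes went apart. Complex I was lower in 7 of 7 libraries (0.903-fold, 0.851 to 0.952), complex IV higher in 7 of 7 (1.17-fold, 1.07 to 1.26), and complexes III and V higher in 6 of 7 (1.09-fold and 1.12-fold).

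edgeR called 14 nuclear members higher and 9 lower among 71 tested, against 47.4% and 25.8% of all genes (73.2% in either direction), whose median log2 was 0.40. The median of the nuclear members was 0.11, or -0.29 relative to all genes. By complex, the median relative to all genes was -0.49 for I, -0.52 for III, -0.12 for IV and -0.20 for V. The higher sums of complexes III, IV and V were thus not above the median of all genes. DESeq2, with a median of 0.07 over all genes and -0.22 over the nuclear members, called 3 and 25. Of the 7 fits that each left out 1 library, 6 called 3 or 4 higher and 22 to 27 lower, and the one without 2 months called 14 and 8. The median log2 of all genes was 0.062 to 0.11 in those 6 and 0.40 in the one without 2 months. The split thus moved with the scaling, while the median of the nuclear members relative to all genes was -0.37 to -0.27 in all 7. The 3 that rose under all 3 scalings were Cox7a2l, Uqcrh and Cox7a2. Cox7a2l, also called SCAFI, is known for its link to supercomplexes of complexes III and IV. Its protein and its role in these C57BL/6 mice were not tested. Its RNA was at 373 CPM (183 to 463) in neuroblast-like and 145 (108 to 176) in astrocyte/NSC-like cells. All 7 neuroblast-like values were above all of the others, with a log2 fold of 1.33 ± 0.17 (SE, edgeR adjusted p = 4.64e-12, 0.93 relative to the median of all genes). Uqcrh, the hinge protein of complex III, was at 665 (547 to 730) against 331 (291 to 464), log2 fold 0.90 ± 0.14 (SE, edgeR adjusted p = 5.44e-09, 0.50 relative to all genes), again without overlap. Cox7a2 was at 759 (562 to 866) against 443 (352 to 521).

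The members that fell in neuroblast-like cells under all 3 scalings numbered 9. Of the 9 called by edgeR, 7 were of complex I, or 7 of its 36 tested members, where 25.8% of all genes were called lower. Ndufc2 was at 375 CPM (289 to 409) against 805 (507 to 945), with no overlap, log2 fold -0.85 ± 0.14 (SE, edgeR adjusted p = 3.26e-08, -1.25 relative to the median of all genes). Ndufs7, a core iron-sulfur subunit, was at 162 (140 to 299) against 293 (231 to 363) and lower in 7 of 7 libraries. Of the mitochondrial complex I subunits, mt-Nd2, mt-Nd4 and mt-Nd5 also fell under all 3 scalings, and mt-Nd5 was at 808 (571 to 1192) against 1514 (1029 to 2391), 1.89-fold lower (edgeR adjusted p = 3.35e-11). mt-Nd1 was called higher by edgeR and not under all 3 scalings.

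Oligodendrocyte-like cells, the myelin-forming glia, had a lower nuclear sum in 6 of 6 libraries, with a mean log2 difference of -0.15 ± 0.09 (SD, n = 6, exact permutation adjusted p = 0.0357). The mitochondrial sum did not differ beyond its spread, at -0.05 ± 0.22 (SD, n = 6, exact permutation adjusted p = 0.594), with 3 libraries higher and 3 lower. That sum joined opposite parts, since mitochondrial mRNA was 1.15-fold (higher in 5 of 6 libraries) and rRNA 0.768-fold (lower in 6 of 6). Complex V was 0.831-fold and complex I 0.895-fold, both lower in 6 of 6 libraries. edgeR called 5 nuclear members higher and 12 lower among 74 tested, against 23.9% and 21.9% of all genes. Library totals alone gave 3 and 26, and the fit without GFP negative 5 and 24.

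Cox6b2 was again the nuclear member that fell furthest, at 20.7 CPM (12.7 to 30.5) in oligodendrocyte-like cells, 4.30-fold lower (edgeR adjusted p = 4.6e-09) and below all astrocyte/NSC-like libraries. Ndufc2 was at 266 (221 to 355) against 810 (507 to 945), log2 fold -1.34 ± 0.18 (SE, edgeR adjusted p = 3.61e-13). Ndufa12, an accessory subunit of complex I, was at 167 (107 to 274) against 383 (145 to 415) and was lower in 6 of 6 libraries. Ndufaf2, an assembly factor related to Ndufa12 that is known to occupy its place in an assembly intermediate, went the other way, at 166 (108 to 230) against 80.2 (0 to 142), higher in 6 of 6 libraries with a log2 fold of 0.95 ± 0.25 (SE, edgeR adjusted p = 0.000469). mt-Nd1 was at 2116 (1795 to 4025) against 1378 (1113 to 2281) and mt-Co1 at 2794 (1047 to 3397) against 2068 (652 to 2472), and both rose under all 3 scalings and were higher in 6 of 6 libraries.

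Microglia-like cells, the resident macrophages, had low levels of nuclear members. Their nuclear sum was 10753 to 15018 CPM, below that of astrocyte/NSC-like cells in 6 of 6 libraries, with a mean log2 difference of -1.02 ± 0.15 (SD, n = 6, exact permutation adjusted p = 0.0357), or 2.03-fold. The mitochondrial sum was lower in 6 of 6 libraries, with a mean log2 difference of -0.66 ± 0.25 (SD, n = 6, exact permutation adjusted p = 0.0357), or 1.58-fold. Complexes I (0.459-fold), III (0.530-fold), IV (0.491-fold) and V (0.498-fold) were alike lower in 6 of 6 libraries. The assembly and accessory factors had a geometric mean of 1.01-fold and a median of 0.891-fold (0.665 to 2.30), and were lower in 4 of 6 libraries. Their highest ratio was that of GFP negative, at 501 against 218 CPM, where the reference had only 22 cells. Mitochondrial mRNA was at 0.547-fold (0.394 to 0.712), lower in 6 of 6 libraries, and mitochondrial rRNA at 0.741-fold (0.614 to 1.01), lower in 5 of 6. edgeR called 58 of 65 nuclear members lower and 0 higher, against 32.0% and 37.3% of all genes (69.3% in either direction), and 46 were lower under all 3 scalings. At an unadjusted p under 0.05, and with DESeq2, 0 members were higher as well.

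Uqcrfs1, the Rieske iron-sulfur subunit of complex III, was at 48.8 CPM (21.3 to 86.4) in microglia-like and 176 (145 to 348) in astrocyte/NSC-like cells, 3.53-fold lower with no overlap (edgeR adjusted p = 5.95e-07). Ndufc1 was at 126 (52.1 to 185) against 415 (291 to 584), log2 fold -1.74 ± 0.22 (SE, edgeR adjusted p = 6.66e-09). Ndufb11 was at 110 (52.1 to 146) against 335 (145 to 475), lower in 5 of 6 libraries. Cox7a2l, the only assembly or accessory factor tested, was not called. The summed level of the dissociation and stress list was 8051 to 15883 CPM in microglia-like and 1475 to 9005 in astrocyte/NSC-like cells, and its part in the difference was not tested.

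**Figure D4:**
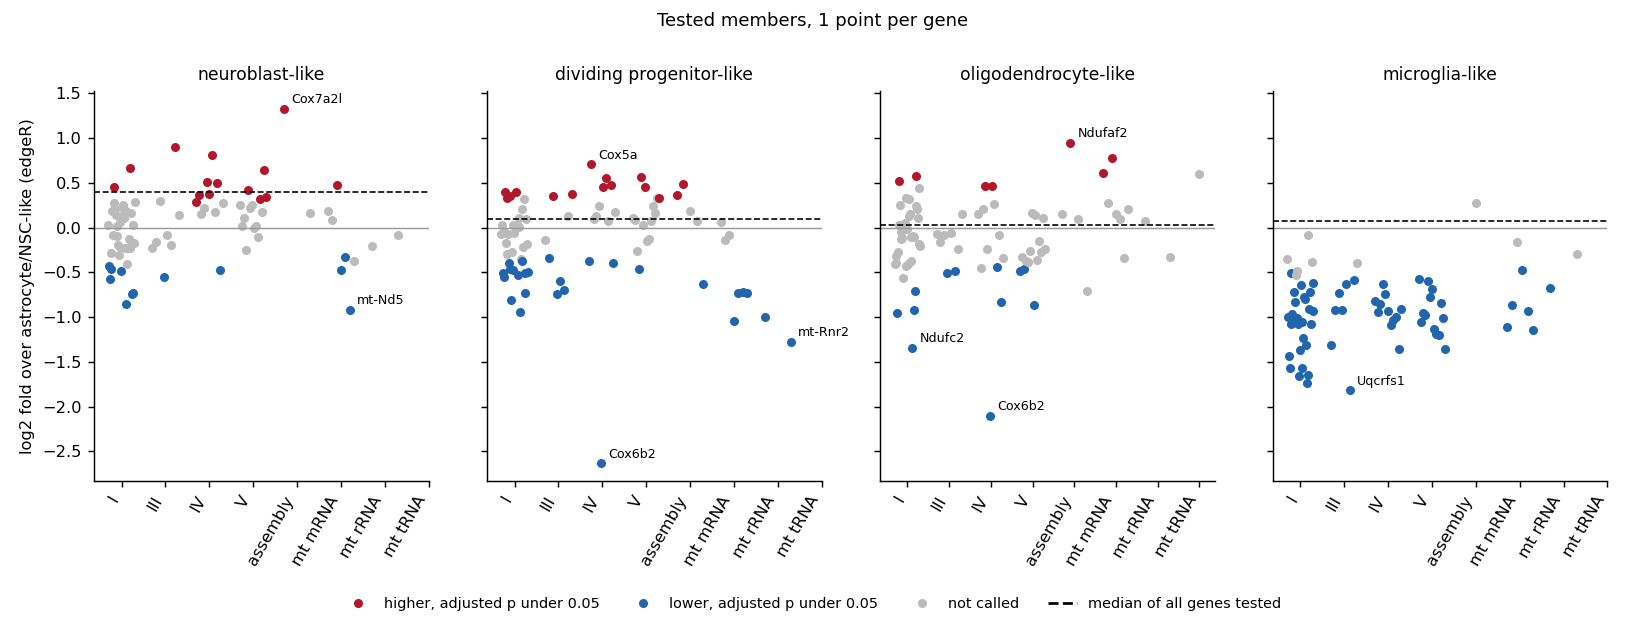
Log2 fold over astrocyte/NSC-like cells (edgeR) for each tested member, grouped by complex and by mitochondrial RNA type, in 4 classes. Red and blue points passed an adjusted p of 0.05, and the dashed line is the median of all genes tested. In microglia-like cells 58 of 65 nuclear members are called lower, while Cox6b2 is the lowest point in dividing progenitor-like and oligodendrocyte-like cells.

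The other classes were in fewer libraries and are given as levels. Mature neuron-like cells (4 libraries) had mitochondrial sums of 32959 to 37530 CPM, with nuclear sums from 11663 in GFP negative to 34572 at 2 months. Oligodendrocyte precursor-like cells (3 libraries) had mitochondrial sums of 8537 to 18192, and 0.379 to 0.589 for the ratio of the sums. Endothelial-like cells (3 libraries) were at 18921 to 36935 and ependymal-like cells, in GFP high only, at 24750 (mitochondrial) and 21482 (nuclear).

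Complex IV is known for subunits with tissue-specific isoforms, and 3 of these were spread unevenly over the classes. Ndufa4l2, a hypoxia-responsive relative of the complex IV subunit Ndufa4, had 105 of its UMIs in the 114 cells of the unnamed cluster 11 that had tied pericyte and fibroblast markers, at 1083 CPM (886 to 1311). In the other classes pooled it was between 0 and 8.59 CPM, with 0 UMIs in astrocyte/NSC-like cells, where the interval reaches 1.64. It was found in cluster 11 in each of 7 libraries, at 286 to 2306 CPM over 5 to 48 cells. Ndufa4 itself was at 361 (251 to 502) in that cluster and between 301 in microglia-like and 1009 in oligodendrocyte precursor-like cells elsewhere.

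Cox4i2, the isoform of Cox4 known from lung and from oxygen-sensing cells, had the same place. It was at 536 CPM (401 to 703) in cluster 11 and was found there in 7 libraries at 192 to 1303, against 19.5 (14.2 to 26.2) in astrocyte/NSC-like cells and at most 8.59 in the others. Cox4i1 was at 877 in cluster 11, inside its range of 582 in microglia-like to 1260 in neuroblast-like cells. Because member genes took no part in the clustering, neither gene chose the cells of cluster 11.

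Cox6b2 was highest in ependymal-like cells at 273 CPM (200 to 363) and next in astrocyte/NSC-like cells at 104 (90.6 to 118), and these intervals do not overlap. It was at 23.6 (17.4 to 31.1) in oligodendrocyte-like, 21.5 in oligodendrocyte precursor-like, 17.5 in dividing progenitor-like, 4.75 (1.91 to 9.79) in neuroblast-like and 4.2 (0.865 to 12.3) in microglia-like cells, with 0 UMIs in mature neuron-like cells. The first 3 of those do not differ beyond their intervals. Over the 8 libraries in astrocyte/NSC-like cells it was 120 CPM for the high gate, 93.2 for the low gate, 72.7 (1 UMI) for GFP negative and 125 unsorted, and 35.1, 190, 81.2 and 59.2 in the age libraries, youngest first. The higher level of Cox6b2 in the GFP high library was thus smaller within the class, where GFP high and GFP low have overlapping intervals. Its counterpart Cox6b1 ranged from 273 in microglia-like to 818 in oligodendrocyte precursor-like cells. Within the astrocyte/NSC-like class, Cox6b2 was 1.38-fold to 5.17-fold higher in cluster 3 than in cluster 0 in 6 of 6 libraries. The intervals overlap in each library, and the largest ratio rests on 8 against 2 UMIs at 2 weeks. Pooled over all libraries, Cox6b2 was at 140 CPM (116 to 167) in cluster 3 and 80.9 (66.4 to 97.5) in cluster 0. The nuclear sum of cluster 3 was 0.895-fold to 0.964-fold that of cluster 0, and the mitochondrial sum 0.670-fold to 0.909-fold.

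**Figure D5:**
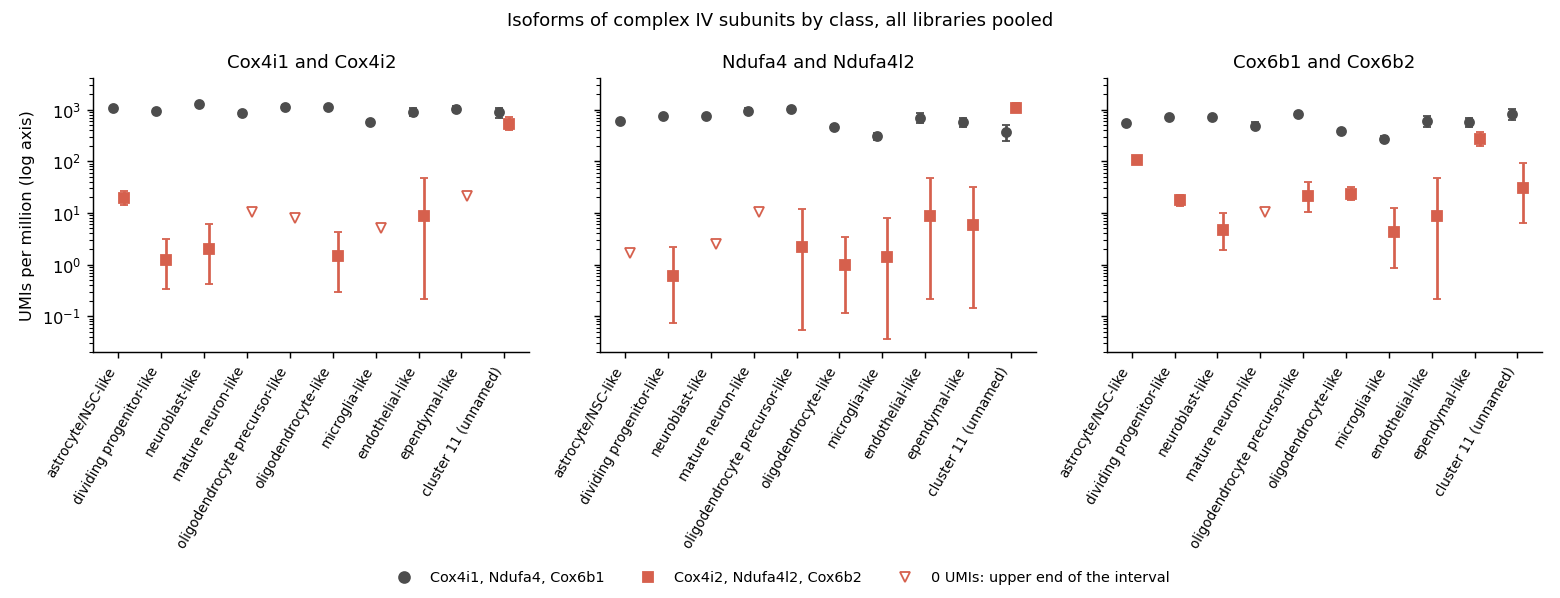
Pooled level of isoforms by class in CPM on a log axis, with exact 95% intervals, for Cox4i1 and Cox4i2, Ndufa4 and Ndufa4l2, and Cox6b1 and Cox6b2. Open triangles mark 0 UMIs and stand at the upper end of the interval. Cox4i2 and Ndufa4l2 are highest in cluster 11, and Cox6b2 in ependymal-like and astrocyte/NSC-like cells.

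The other isoforms set few classes apart. Atp5g1, a c subunit gene of the ATP synthase, ranged from 122 CPM in microglia-like to 428 in oligodendrocyte precursor-like cells, Atp5g3 from 90.9 in microglia-like to 320 in cluster 11, and Atp5g2 from 16.8 in microglia-like to 62.4 in oligodendrocyte precursor-like cells. These levels are pooled over libraries that differ in the genes, and 155 of the 251 oligodendrocyte precursor-like cells came from the 2 weeks library, so class and library cannot be told apart in this order. Cox8a ranged from 344 in microglia-like cells to 1341 in cluster 11. The muscle-type genes were close to undetected, with 40 UMIs for Cox7a1, 8 for Cox6a2, all of them in microglia-like cells, and 7 for Cox8b.

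The pathways around the chain were followed with the same edgeR tests. Of the glycolysis list, 10 of 11 tested genes fell in neuroblast-like and 10 of 11 in dividing progenitor-like cells, with median log2 folds of -1.48 and -1.86, against 0.40 and 0.10 over all genes. In oligodendrocyte-like cells 8 of 10 fell, and in microglia-like cells 7 of 9 fell and 1 rose. Of all genes, 25.8% were called lower in neuroblast-like, 31.1% in dividing progenitor-like, 21.9% in oligodendrocyte-like and 32.0% in microglia-like cells. In microglia-like cells 37.3% were called higher. The summed level of the list was 5359 to 8647 CPM in astrocyte/NSC-like, 905 to 2076 in dividing progenitor-like and 701 to 1546 in neuroblast-like cells, which do not overlap with the first. The list holds Aldoc, which is also among the markers that named the astrocyte/NSC-like class. The gap in the sums is therefore in part built in by the naming, and a sum without Aldoc was not taken. Aldoc, the brain aldolase of astrocytes and itself a marker of them, had log2 folds of -5.19 in neuroblast-like and -5.22 in dividing progenitor-like cells. Ldhb, a lactate dehydrogenase subunit, had -1.91 and -1.98, and Hk2, a hexokinase, rose by 5.99 in microglia-like cells.

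Of complex II and the electron carriers, 6 of 9 tested genes fell in neuroblast-like cells, and in dividing progenitor-like cells 4 of 9 fell and 1 rose. Sdha, the catalytic subunit of complex II, had a log2 fold of -0.92 in neuroblast-like cells, and Cycs, cytochrome c, had 0.65 in dividing progenitor-like cells. Of the tricarboxylic acid cycle, 5 of 12 fell and 1 rose in neuroblast-like and 6 of 16 fell in dividing progenitor-like cells, where 25.8% and 31.1% of all genes were called lower. Of the proteins of the mitochondrial ribosome, 27 of 67 rose and 1 fell in dividing progenitor-like cells, a share of higher genes near the 36.3% of all genes. In neuroblast-like cells 17 of 41 rose and 2 fell, not above the 47.4% of all genes, and their median log2 fold of 0.27 was below the 0.40 of all genes. Of the cytosolic ribosome, 79 of 79 and 78 of 79 rose. Among assembly factors outside the members, 2 of 16 rose and 2 fell in dividing progenitor-like cells, below the 36.3% and 31.1% of all genes.

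Nuclear and mitochondrial members were also set against each other among cells of one class and library. Cells were split into 3 equal groups by their mitochondrial share, and the nuclear sum was taken per 1000000 UMIs outside the mitochondrial genes, so that one sum does not lower the other by arithmetic. In 29 of 34 combinations of class and library the nuclear sum was lower in the group with the most mitochondrial UMIs, with an interval below 1 in 19 and above 1 in 2. The median ratio was 0.895, at mitochondrial shares of 3.12% and 1.09% and median depths of 800.5 and 905.25 UMIs. In oligodendrocyte-like cells it was lower in 6 of 6 libraries, with a median of 0.862, in astrocyte/NSC-like cells in 6 of 7, at 0.866, and in microglia-like cells in 5 of 6, at 0.979. Cells were sorted by their own counts for this split, and the part of damaged cells in it was not tested.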

How the data were processed

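Per the labels' protocols, viable SVZ cells were sorted, processed by Drop-seq and sequenced on a NextSeq with 64-base second reads. Per the submitters' processing notes the builds were mm10 and GRCm38. Which program aligned and counted the reads is not stated there. The deposited files hold a raw UMI count per gene and barcode, 1 file per library, unnormalized by the authors. The 3 joined tables were not used.

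Barcodes of at least 400 UMIs were kept. Doublets were called by Scrublet (expected share 5%) in scanpy 1.11.5. Cells were clustered with 2000 variable genes (members left out), 30 principal components, 15 neighbours and Leiden resolution 1, and a cluster was named from at least 3 markers that were 2-fold higher than outside it. Levels carry exact Poisson and ratios exact conditional binomial intervals. Class differences were tested by an exact sign-flip permutation over libraries, with R 4.3.3 and edgeR 4.0.16 (TMM, filterByExpr, library block) for genes, and DESeq2 1.42.0 and library totals as alternatives. Libraries, not cells, were the replicates, and nothing says whether they came from separate animals, so p-values measure the spread between these libraries. The edgeR script was tested on simulated data.

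The members and the gene lists were chosen with earlier results of these data known. Named genes are the isoform families, the 3 members with most UMIs per complex, the mitochondrial mRNAs and rRNAs, and the 3 largest differences in each direction per comparison. Promoters came from RefSeq (GRCm38.p6), and the copies of mitochondrial genes from an annotation of GRCm38.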

Additional observations from a re-analysis of the deposited data

Results flagged for a closer look

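Counts outside the members were seen in 4 pseudogene entries that the naming rule leaves out: Atp5k-ps2 with 660 UMIs, Atp5l-ps2 with 119, Atp5l2-ps with 71 and Atp5l-ps1 with 10. Atp5k and Atp5l may share reads with these copies, and their levels are uncertain to that extent. Barcodes with fewer than 400 UMIs, which no comparison used, held a mitochondrial sum of 54587 CPM over all libraries, from 22189 in GFP negative to 84849 at 12 months. The barcodes kept had 14889 to 28389 CPM, a range that holds the GFP negative value and lies below the other 7.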

How the results depend on the processing

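Of 76 ratios of sums between libraries under alternatives, 40 stayed within their counting interval, and 1 changed direction: the nuclear sum of GFP high over GFP low, which was 1.07 with size factors, 0.974 with mean shares per barcode and 0.990 in barcodes of 800 to 2000 UMIs. The mitochondrial sum of GFP high over GFP low was 1.45 with no minimum, 1.35 with mean shares, 1.55 with size factors, 1.24 at 800 to 2000 UMIs and 1.36 without barcodes of over 10% mitochondrial UMIs. GFP high over GFP negative was, for nuclear members, 1.30 with size factors and 1.36 at 800 to 2000 UMIs, and for mitochondrial ones 1.26 with no minimum, 1.28 with mean shares, 1.38 for mRNAs alone, 1.32 without mt-Rnr2, 1.09 with size factors, 1.22 at 800 to 2000 UMIs and 1.15 without high-mitochondrial barcodes. For 12 months over 2 weeks, nuclear members gave 0.868 with size factors and 0.849 at 800 to 2000 UMIs. Mitochondrial members gave 1.49 with a minimum of 1000 UMIs, 1.84 with none, 1.69 with mean shares, 1.37 for mRNAs alone, 1.40 without mt-Rnr2, 1.74 with size factors and 1.5 at 800 to 2000 UMIs. For unsorted over 2 months, nuclear members gave 0.783 with no minimum, 0.765 with mean shares, 0.761 with size factors and 0.769 at 800 to 2000 UMIs. Mitochondrial members gave 1.21 with no minimum, 1.18 with mean shares, 1.41 for mRNAs alone, 1.32 without mt-Rnr2, 1.08 with size factors and 1.21 at 800 to 2000 UMIs.

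Of 138 class differences under alternatives, 49 kept their side of the threshold, 81 lost the adjusted p of 0.05 in the same direction and 8 changed direction. Settings that leave fewer libraries raise the smallest p the permutation test can give. In log2, with a minimum of 1000 UMIs, with at least 50 cells, with subunits or mRNAs only, and in cells of 800 to 2000 UMIs, in this order, the differences were as follows. Nuclear: neuroblast-like 0.0024, 0.047, 0.066 and 0.039, dividing progenitor-like 0.14, 0.18, 0.19 and 0.14, oligodendrocyte-like -0.21, -0.15, -0.15 and -0.16, microglia-like -1.14, -1.06, -1.05 and -1.12. Mitochondrial: neuroblast-like 0.10 (turned), -0.10, -0.12 and -0.025, dividing progenitor-like -0.37, -0.49, -0.21 and -0.22, oligodendrocyte-like 0.16, 0.014, 0.20 and 0.14 (all turned), microglia-like -0.40, -0.59, -0.87 and -0.54. The mitochondrial oligodendrocyte-like difference also turned to 0.056 with mean shares. Without the member with most UMIs, nuclear differences were 0.068 (neuroblast-like), -0.16 (oligodendrocyte-like) and -1.02 (microglia-like), and mitochondrial ones -0.11, 0.18 (turned) and -0.85. The neuroblast-like nuclear difference was 0.067 with doublets kept, 0.074 per 1000000 UMIs outside mitochondrial genes and 0.075 without cells of over 10% mitochondrial UMIs. The settings of 800 to 2000 UMIs and of 10% were chosen after seeing the data.

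Leaving out 1 library at a time gave nuclear differences of 0.047 to 0.093 (neuroblast-like), 0.19 to 0.21 (dividing progenitor-like), -0.17 to -0.12 (oligodendrocyte-like) and -1.06 to -0.98 (microglia-like), and mitochondrial ones of -0.13 to -0.099, -0.55 to -0.50, -0.093 to 0.014 (turned without GFP negative) and -0.72 to -0.59. The nuclear members called were then 22 to 30, 22 to 49, 12 to 29 and 56 to 60.

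Counts of nuclear members called moved by over 1.5 times without the library block (neuroblast-like 10, dividing progenitor-like 13, oligodendrocyte-like 7), without a filter (dividing progenitor-like 23, oligodendrocyte-like 8), and in oligodendrocyte-like cells with DESeq2 (11) and with library totals (29). Between libraries within a class, 276 of 366 ratios kept their value, 80 moved and 10 changed direction. At 6 months over 2 months, the mitochondrial sum of mRNAs alone and without mt-Rnr2 turned to 0.831 and 0.831 in astrocyte/NSC-like, 0.968 and 0.977 in dividing progenitor-like, 0.962 and 0.952 in neuroblast-like and 0.960 and 0.939 in microglia-like cells, and GFP low over GFP negative in neuroblast-like cells turned to 1.07 and 1.04. The cause of these shifts was not tested. The class comparisons were paired within libraries, with the library as the block. Between groups, no test and no pairing was possible with 1 library per group. Depth limits the classes with few cells: GFP negative held 22 astrocyte/NSC-like cells, and its values there rest on few UMIs per member.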
